A study of Mus musculus with 24 samples.

Results

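The genes described here are those of meiotic recombination: *Spo11*, *Prdm9*, *Meiob*, *Dmc1*, *Msh4*, *Msh5*, *Hfm1*, *Rnf212* and *Mlh3*. These 9 genes were chosen by name for their known roles, and their rows were read from the count table of each library by gene symbol. Of the 9, 8 had a row among the 24456 genes listed. *Rnf212* matched no row under its symbol or a synonym and was not analysed here.

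In the prophase of meiosis, programmed double-strand breaks are made in the DNA, resected to single-stranded tails and repaired from the homologous chromosome, and a small share of the breaks becomes crossovers that hold the homologs together until they segregate. In mice, the breaks form in leptonema, strand exchange follows in zygonema, and crossovers are designated and resolved in pachynema. In the juvenile testis, germ cells enter meiosis as a first, roughly synchronous wave, so that spermatids accumulate in the weeks after birth while new spermatocytes continue to enter behind them.

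The libraries were made from total RNA of testes from wild-type (WT) mice and from mice homozygous for a knockout (KO) of *Atad2*, which codes for a bromodomain-containing AAA+ ATPase, at 20, 22, 24 and 26 days of age. Each genotype was represented by 4 libraries on day 20, 4 on day 22, 2 on day 24 and 2 on day 26, giving 24 libraries. The KO allele is a knockout-first allele (tm1a) of the International Knockout Mouse Consortium carrying a *lacZ* cassette, crossed with CMV-Cre mice, which express Cre in all tissues, so that the *neo* cassette and exon 12 of *Atad2* were removed. The product is a fusion of the protein encoded by the first 11 exons with *lacZ* that the study describes as non-functional, and the deletion is carried by all cells of the mouse and not by germ cells alone. The question of the design is how expression in the testis differs without ATAD2 as spermatids first appear. The study calls the libraries of a group biological replicates. The labels number them but do not name the mouse behind each, and p-values measure the spread between these libraries.

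The tables held 10709667 to 19491935 counts per library. The WT day 20 replicate 2 library was the shallowest and stood apart, with 13.7% of its read pairs at several alignments and 3.26% of its gene counts on the mitochondrial ribosomal RNAs, against at most 9.16% and 1.06% in the other libraries. Levels are given as CPM, the counts of a gene relative to the library total, with each total corrected by edgeR's TMM factor so that libraries of different makeup can be compared. *Atad2* itself, summed over the whole gene and therefore no check of exon 12 alone, was lower in every KO library than in every WT library of its day, with means of 34.0 against 109 CPM on day 20 and 52.7 against 125 CPM on day 26. It was called by edgeR on days 20, 22 and 24, and on day 26 it had a log2 fold change of -1.25 and was not called (adjusted p = 0.0628 by edgeR). The extraction text of the labels mentions purified spermatogenic cell fractions, whereas the samples are labelled testis. Markers of Sertoli cells (5 of 5 listed genes) and of Leydig cells (5 of 5) had counts, with summed levels of 197 to 446 and 246 to 1741 CPM. The summed level of 6 round spermatid markers had a mean of 6.78 CPM in WT and 44.6 CPM in KO on day 20, and of 499.9 CPM in WT and 525 CPM in KO on day 26. The 6 early prophase markers, which include synaptonemal complex genes, had a mean summed level of 3580 CPM in WT on day 20 and of 2599 CPM on day 26, and without WT replicate 2 of day 20, which held 5689 CPM, the day 20 mean was 2877 CPM. Epididymal markers (*Crisp1* and *Adam7*) summed to 13.9 to 685 CPM in 9 of the 24 libraries and to at most 2.16 CPM in the others, and on days 24 and 26 they were in replicate 2 of each genotype, at 685 and 545 CPM in WT and 157 and 128 CPM in KO. Libraries of whole tissue cannot tell fewer cells of a type from less RNA per cell, and this holds for each difference below.

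**Figure D1:**
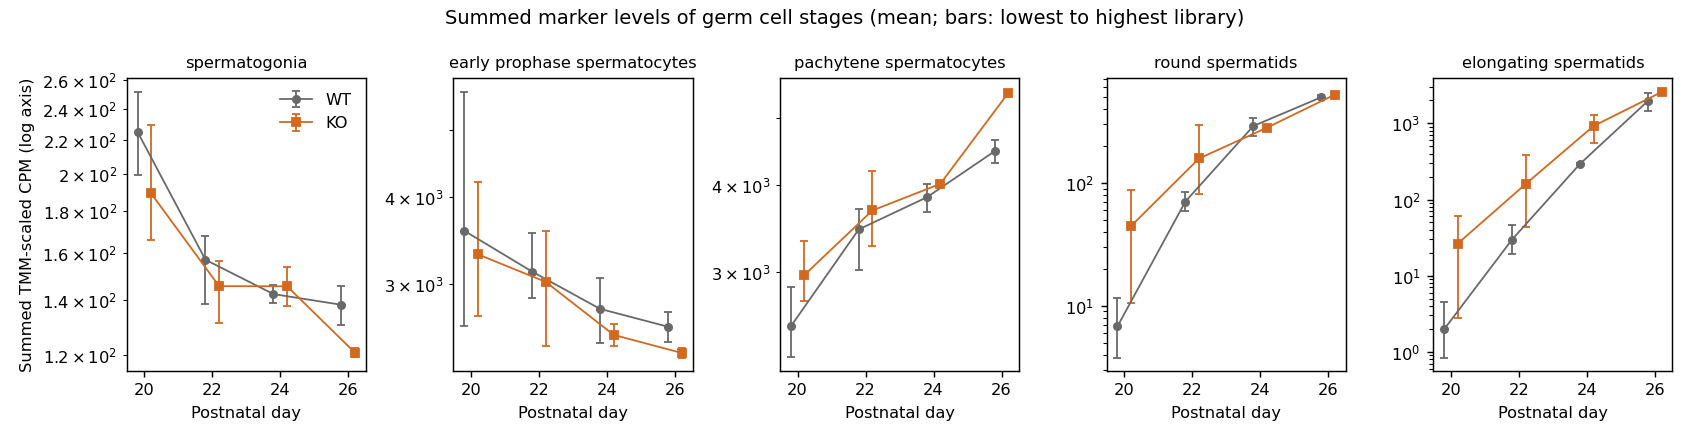
Summed TMM-scaled CPM (log axis) of the marker genes of 5 germ cell stages by postnatal day, in WT (circles) and KO (squares). Symbols are means and bars run from the lowest to the highest library, with 4 libraries per group on days 20 and 22 and 2 on days 24 and 26. Spermatid markers rose from day 20 to day 26 (6 of 6 round and 6 of 6 elongating in each genotype), while the spermatogonial sum was lower on day 26 than on day 20, with means of 138 against 225 CPM in WT.

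All 8 genes passed the filter on low counts and were well above the floor of 3 counts, with between 120 counts (*Msh5*) and 4758 counts (*Hfm1*) in a library. Levels can be compared between genes only per length, and per kilobase of merged exons the mean over the 24 libraries was 31.2 CPM per kb for *Hfm1*, a DNA helicase of the crossover pathway, and 31.1 CPM per kb for *Meiob*, a single-stranded DNA binding protein. *Spo11* and *Mlh3* followed at 17.5 and 17.1 CPM per kb, *Dmc1* at 11.5, *Msh4* at 5.23, *Prdm9* at 3.44 and *Msh5* at 2.84 CPM per kb. The library ranges of each pair of neighbours in this order overlapped except those of *Dmc1* and *Msh4*. *Dmc1* spanned 7.45 to 18.2 CPM per kb and *Msh4* spanned 3.70 to 7.01 CPM per kb. The order depends on the transcripts counted into the length. When protein-coding transcripts alone were used, an alternative added after the values were seen, *Spo11* took rank 2 with 39.1 CPM per kb, behind *Hfm1* with 40.2, because its merged exons shrink from 3921 to 1755 bases, and *Msh5* and *Prdm9* changed places at ranks 7 and 8.

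Summed over the 8 genes, the mean level was 643 ± 180.4 CPM (SD, n = 4) in WT and 614 ± 106 CPM (SD, n = 4) in KO on day 20. WT replicate 2, at 904 CPM, was the highest library of its group, and without it the WT mean was 556 ± 59.0 CPM (SD, n = 3), below that of KO. On day 26 it was 463 ± 21.9 CPM (SD, n = 2) in WT and 499 ± 10.9 CPM (SD, n = 2) in KO. This sum is not divided by length, and *Hfm1* and *Mlh3* weigh most in it. Their WT means were 277 and 133 CPM on day 20 and 164 and 118 CPM on day 26. The coefficient of variation of single genes over the 24 libraries ran from 10.3% for *Mlh3* to 31.3% for *Hfm1*.

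**Figure D2:**
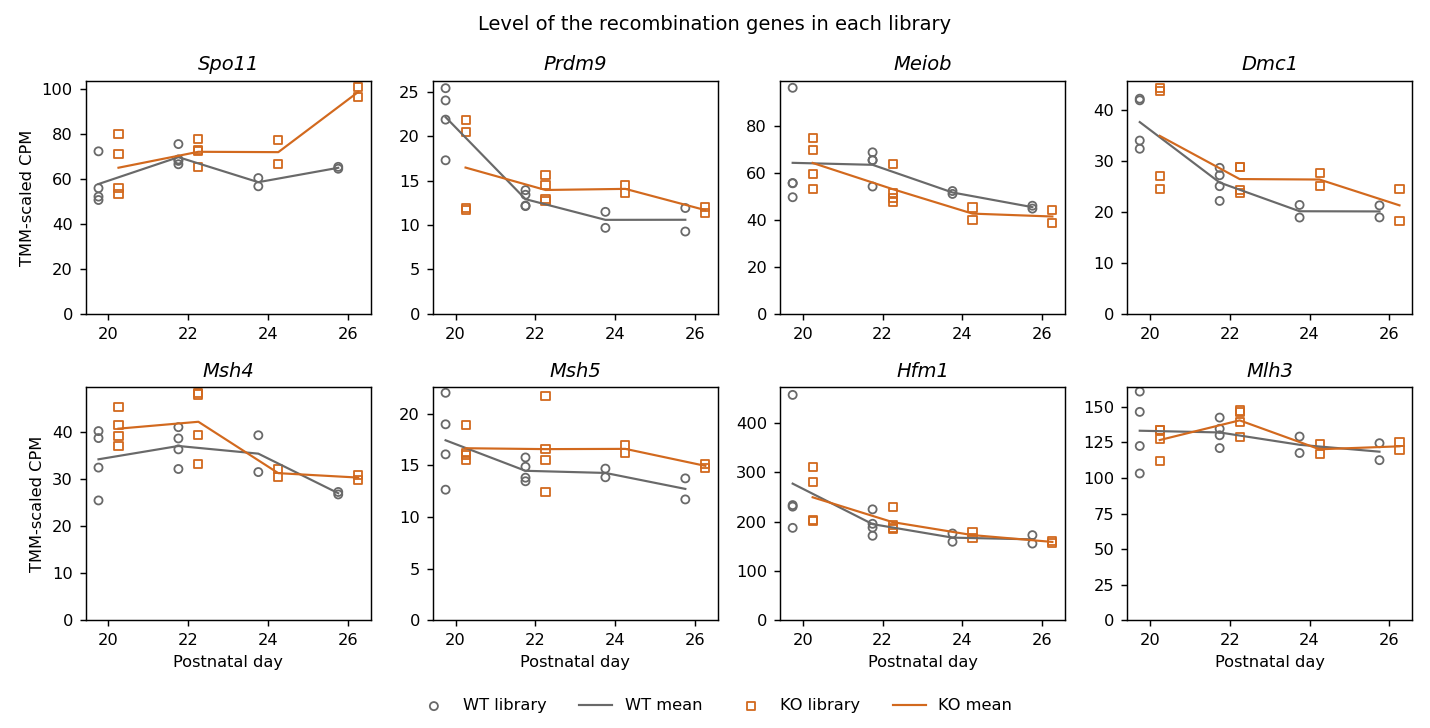
TMM-scaled CPM of each of the 8 genes (vertical axis from 0) by postnatal day. Open circles are WT libraries, open squares KO libraries, and lines join the group means. *Prdm9* and *Dmc1* were highest on day 20, and the 2 KO libraries of day 26 held the highest *Spo11* levels, 96.4 and 101 CPM.

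SPO11 is the topoisomerase-like protein that makes the double-strand breaks, and its gene lies on the plus strand of chromosome 2 (GRCm38, 172977700 to 172993576). It is spliced into a beta form that keeps exon 2, made as breaks form, and an alpha form that skips it and prevails later in prophase. Counts per gene add the forms together. The exon that separates them is shown because no value below can be assigned to either form. It spans chr2:172981979-172982092 (plus strand, 114 bases, GENCODE M21 on GRCm38), and it is present in a coding transcript of 1709 bases and absent from one of 1591 bases.
Spo11 exon 2: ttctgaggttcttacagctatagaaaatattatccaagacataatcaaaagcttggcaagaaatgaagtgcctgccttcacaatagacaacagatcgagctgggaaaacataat

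In WT the levels of *Spo11* were 56.0, 72.3, 52.2 and 50.7 CPM on day 20, 75.6, 68.7, 68.1 and 66.6 on day 22, 60.4 and 56.8 on day 24 and 64.6 and 65.4 on day 26. In KO they were 79.9, 71.1, 55.9 and 53.3 CPM on day 20, 72.6, 77.8, 72.9 and 65.2 on day 22, 66.7 and 77.3 on day 24 and 96.4 and 101 on day 26. The genotypes overlapped on days 20 and 22, while both KO libraries lay above both WT libraries on days 24 and 26. The mean was 98.7 ± 3.31 CPM (SD, n = 2) in KO and 65.0 ± 0.592 CPM (SD, n = 2) in WT on day 26.

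PRDM9 is the zinc finger histone methyltransferase that marks the hotspots where breaks are placed. Its gene lies on the minus strand of chromosome 17 (GRCm38, 15543079 to 15564354). In WT, *Prdm9* stood at 25.4, 24.0, 21.8 and 17.3 CPM on day 20 and at 9.27 and 11.9 CPM on day 26. In KO, it stood at 20.5, 21.8, 11.9 and 11.6 CPM on day 20 and at 12.1 and 11.3 CPM on day 26. Every WT library of day 26 was below every WT library of day 20, whereas in KO the low pair of day 20 libraries, replicates 3 and 4, overlapped with day 26. The share of all genes whose libraries of days 20 and 26 did not overlap was not counted, here or for the genes below. On days 22 and 24 the levels were 12.2, 12.1, 13.9 and 13.4 and 9.68 and 11.5 CPM in WT, and 12.9, 12.7, 14.5 and 15.6 and 13.6 and 14.5 CPM in KO.

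MEIOB binds single-stranded DNA with SPATA22 and is needed to keep the strand exchange proteins on the DNA. Its gene lies on the plus strand of chromosome 17 (24804289 to 24839788). *Meiob* stood at 55.7, 96.2, 55.6 and 49.7 CPM in WT and 69.6, 74.9, 59.4 and 53.1 CPM in KO on day 20. On day 26 it stood at 46.1 and 44.8 CPM in WT and 38.7 and 44.2 CPM in KO. In each genotype the day 26 libraries were below all libraries of day 20, and the high WT value of day 20 belonged to replicate 2. Without that library the WT mean of day 20 was 53.7 ± 3.46 CPM (SD, n = 3), against 64.3 ± 21.5 CPM (SD, n = 4) with it.

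DMC1 is the meiosis-specific recombinase that carries out the search for the homolog, and its gene lies on the minus strand of chromosome 15 (79561497 to 79605109). In WT, *Dmc1* went through 42.1, 41.8, 33.9 and 32.3 CPM on day 20, 22.1, 25.0, 27.1 and 28.6 on day 22, 18.9 and 21.3 on day 24 and 18.9 and 21.2 on day 26. In KO, it went through 43.7, 44.3, 27.1 and 24.4 CPM on day 20, 28.8, 23.7, 24.3 and 28.8 on day 22, 27.6 and 25.0 on day 24 and 24.4 and 18.1 on day 26. In each genotype every library of day 26 lay at or below the lowest of day 20, with KO replicate 1 of day 26 and KO replicate 4 of day 20 next to each other at 24.4 CPM. As for *Prdm9*, KO replicates 3 and 4 of day 20 were the low pair, and in WT too replicates 3 and 4 of that day lay below replicates 1 and 2 for both genes.

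MSH4 and MSH5 form the MutS gamma clamp that stabilizes crossover intermediates, HFM1 is a helicase of the same pathway, and RNF212 is a RING-domain factor that helps select the sites of crossing over. The genes lie on the minus strands of chromosome 3 (*Msh4*, 153857149 to 153906138), chromosome 17 (*Msh5*, 35028605 to 35046745) and chromosome 5 (*Hfm1*, 106840192 to 106926321). *Hfm1* was at 230.1, 456, 187 and 233 CPM in WT on day 20 and at 155 and 172 CPM on day 26. In KO it was at 281, 311, 204 and 200.3 CPM on day 20 and at 156 and 161 CPM on day 26. Days 20 and 26 did not overlap in either genotype, and WT replicate 2 of day 20 was far above the rest. Without it the WT mean of day 20 was 217 ± 25.7 CPM (SD, n = 3), against 277 ± 121 CPM (SD, n = 4) with it.

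*Msh4* was at 38.7, 40.2, 25.5 and 32.5 CPM in WT and 41.5, 45.2, 39.1 and 37.1 CPM in KO on day 20. On day 26 it was at 27.3 and 26.8 CPM in WT and 29.9 and 30.8 CPM in KO. In KO the days were apart, and in WT replicate 3 of day 20 lay below day 26. *Msh5* ranged from 11.7 to 22.0 CPM over the 24 libraries. On day 24 it stood at 13.8 and 14.7 CPM in WT and 16.2 and 17.0 CPM in KO, and on day 26 at 13.7 and 11.7 and 14.7 and 15.1 CPM, so that the KO pair was higher on both days. MLH3 is a subunit of the MutL gamma endonuclease that resolves joint molecules into crossovers, and its gene lies on the minus strand of chromosome 12 (85234520 to 85270599). *Mlh3* was the steadiest of the 8 genes, ranging from 103 to 161 CPM.

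From day 20 to day 26 in WT, 3 of the 8 genes fell and none rose, against 42.5% of all 17170 genes tested that were called, 18.1% lower and 24.4% higher. The test was the quasi-likelihood test of edgeR over all libraries, with Benjamini-Hochberg adjustment over all genes and a call at an adjusted p under 0.05. The log2 fold change was -1.06 for *Prdm9* (SE 0.229, adjusted p = 0.000807 by edgeR) and -0.90 for *Dmc1* (SE 0.217, adjusted p = 0.00208 by edgeR). Both calls held in all 24 fits that dropped a library, over ranges of -1.25 to -0.90 for *Prdm9* and -0.99 to -0.83 for *Dmc1*. It was -0.75 for *Hfm1* (SE 0.254, adjusted p = 0.0210 by edgeR), whose size and call rested on single libraries. The value was -0.44 without WT replicate 2 of day 20 and still called (adjusted p = 0.0304 by edgeR), and it was -0.69 and -0.83 and not called without WT replicate 1 or 2 of day 26, where 1 library then stands for its group. It was also not called with WT fitted alone (-0.77, adjusted p = 0.0573 by edgeR).

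The other 5 genes did not pass in WT. Their log2 fold changes were -0.50 for *Meiob* (95% interval -0.93 to -0.070), -0.46 for *Msh5* (-0.87 to -0.047), -0.34 for *Msh4* (-0.70 to 0.025), -0.17 for *Mlh3* (-0.46 to 0.12) and 0.17 for *Spo11* (-0.15 to 0.49). *Meiob*, with an adjusted p of 0.0565 by edgeR, passed in 16 of the 24 fits that left out a library, and its value was -0.28 (adjusted p = 0.112 by edgeR) without WT replicate 2 of day 20. *Msh5* passed in 3 such fits, among them the one without that same library (-0.62, adjusted p = 0.00710 by edgeR), and *Msh4* in 1, without WT replicate 3 of day 20 (-0.47, adjusted p = 0.0210 by edgeR). The median over the 8 genes was -0.48, beside -0.044 over all genes tested.

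In KO, 5 of the 8 genes were called between the same days, 4 lower and 1 higher, against 52.2% of all genes, 24.9% lower and 27.2% higher. The genes that fell were *Dmc1*, with a log2 fold change of -0.71 (SE 0.214, adjusted p = 0.00862 by edgeR), *Hfm1* with -0.65 (adjusted p = 0.0360), *Meiob* with -0.63 (adjusted p = 0.0147) and *Msh4* with -0.42 (adjusted p = 0.0462). *Spo11* rose by 0.60 (SE 0.150, adjusted p = 0.00229 by edgeR), and stayed called in all 24 fits that dropped a library. The other 4 calls rested on single libraries. *Dmc1* was not called without KO replicate 2 of day 26 (-0.53), and *Meiob* was not called without KO replicate 1 of day 26 (-0.55). *Hfm1* was not called without either KO library of day 26 (-0.63 and -0.69) or without KO replicate 1 or 2 of day 20 (-0.60 and -0.52). *Msh4* was not called in 8 of the 24 such fits, in which its log2 fold change lay between -0.46 and -0.37: those without KO replicate 1, 2 or 3 of day 20, WT replicate 4 of day 20, KO replicate 2 of day 22, either KO library of day 26 or WT replicate 2 of day 26. Its call was also lost with no filter on low counts (-0.40, adjusted p = 0.0722 by edgeR), and those of *Msh4* and *Hfm1* with RLE size factors and with DESeq2. *Prdm9* (-0.50, interval -0.96 to -0.030), *Msh5* (-0.16, -0.56 to 0.25) and *Mlh3* (-0.051, -0.34 to 0.24) did not pass in KO. *Prdm9* did pass in KO without KO replicate 3 of day 20 (-0.62, adjusted p = 0.0235 by edgeR), without KO replicate 4 of day 20 (-0.62, 0.0215) and with library totals in place of TMM (-0.68, 0.0124). The median over the 8 genes was -0.46, beside -0.069 over all genes.

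**Figure D3:**
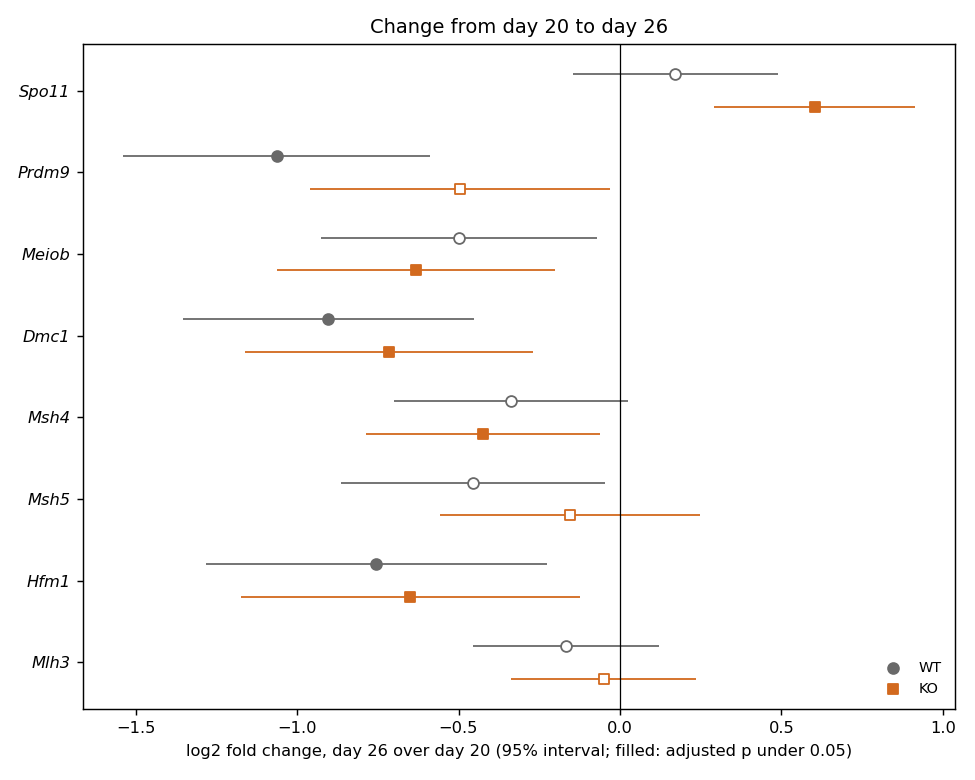
Log2 fold change from day 20 to day 26 (horizontal axis) for each of the 8 genes in WT (circles) and KO (squares), with 95% intervals; filled symbols passed an adjusted p under 0.05. *Spo11* is the gene to the right of 0, at 0.17 in WT and 0.60 in KO, and *Prdm9* lies farthest to the left in WT at -1.06.

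Cell markers moved over the same days. Between day 20 and day 26 in WT, 4 of 6 spermatogonial and 2 of 6 early prophase markers fell, while 4 of 6 pachytene, 6 of 6 round spermatid and 6 of 6 elongating spermatid markers rose. In KO the counts were 3 of 6 and 2 of 6 lower, and 4 of 6, 6 of 6 and 6 of 6 higher, against the shares of all genes given above. No listed marker of these stages was at 0 in all libraries, and the part of the changing makeup of the testis in the values of the recombination genes was not tested.

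The promoter windows of the 3 genes called lower with age in WT are shown, each 300 bases around the start of the RefSeq gene on GRCm38.p6. Of the 9 genes, 7 had a window. Capitals mark 2 motifs, found on either strand: CNCCTCAG, an element described for STRA8, the factor that starts the meiotic programme, and GCGGGA, the core bound by E2F factors. The window of *Prdm9* is chr17:15564305-15564604, that of *Dmc1* chr15:79605060-79605359 and that of *Hfm1* chr5:106925841-106926140, all on the minus strand and written in the direction of transcription.
Prdm9: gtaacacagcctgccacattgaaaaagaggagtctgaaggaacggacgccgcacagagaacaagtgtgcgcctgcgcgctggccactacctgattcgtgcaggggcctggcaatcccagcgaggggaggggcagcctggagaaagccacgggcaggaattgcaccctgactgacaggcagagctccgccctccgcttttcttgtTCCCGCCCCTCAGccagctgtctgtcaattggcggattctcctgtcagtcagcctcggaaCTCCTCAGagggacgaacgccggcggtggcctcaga
Dmc1: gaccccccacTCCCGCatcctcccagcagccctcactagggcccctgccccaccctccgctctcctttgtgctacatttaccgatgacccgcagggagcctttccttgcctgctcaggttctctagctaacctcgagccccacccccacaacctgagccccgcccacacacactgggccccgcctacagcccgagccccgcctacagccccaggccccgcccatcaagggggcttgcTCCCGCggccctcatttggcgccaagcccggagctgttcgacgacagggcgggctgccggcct
Hfm1: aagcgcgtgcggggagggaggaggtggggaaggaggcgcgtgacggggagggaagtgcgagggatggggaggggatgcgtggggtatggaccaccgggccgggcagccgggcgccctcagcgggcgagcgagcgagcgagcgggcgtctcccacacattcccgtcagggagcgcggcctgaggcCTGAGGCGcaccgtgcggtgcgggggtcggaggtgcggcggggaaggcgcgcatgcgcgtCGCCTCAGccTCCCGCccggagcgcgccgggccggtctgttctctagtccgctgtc

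The STRA8 element occurred 2 times in the windows of *Prdm9* and of *Hfm1* and was absent from that of *Dmc1*. In *Prdm9* the first occurrence overlaps the E2F core. Among all 32851 windows of this length, 7.94% held the STRA8 element and 20.0% the E2F core. Of the 7 genes with a window, 3 held the former (*Prdm9*, *Msh5* and *Hfm1*) and 5 the latter (*Prdm9*, *Dmc1*, *Msh5*, *Hfm1* and *Rnf212*). A gene was counted if any of its windows held the motif, whereas the shares are per window. The A-MYB core CAGTTG, which also has the form of a general E-box (CANNTG), present in 13.7% of windows, was in none of the 7, and the E-box CACGTG, present in 7.15%, was in that of *Rnf212*. *Prdm9* has a further window at another start, in which the E2F core and no STRA8 element was found, and for *Mlh3* and *Msh4* none of the 4 motifs was found. A match is a description of the letters and says nothing of binding in these testes.

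Over the 24 libraries, the 2 genes with the most similar course were *Prdm9* and *Dmc1*, with a Pearson correlation of log2 levels of 0.93, and 0.92 without WT replicate 2 of day 20. Of the 28 pairs among the 8 genes, 23 had a positive correlation, with a median of 0.38 and a lowest value of -0.26 between *Spo11* and *Msh5*. These are descriptions, as the libraries share groups, ages and the shift in cell types. The 5 genes outside the list whose log2 level was most like the mean of the 8 were *Strip2* (0.951), *Ublcp1* (0.951), *Api5* (0.946), *Nxf3* (0.937) and *Gm960*, also named *Top6bl* (0.935), again as correlations over 24 libraries, and the same 5 led with a prior count of 0.5 and without WT replicate 2 of day 20. *Top6bl* codes for the partner of SPO11 in the break-forming complex. The 5 genes most like *Spo11* alone, looked up after its values had been seen, were *Cdkal1* (0.913), *Ift22* (0.905), *Gpr160* (0.902), *Ube2d2b* (0.901) and *Tmem97* (0.896).

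Of 47 further genes of the recombination pathway, 44 had a row of counts and were tested, while *Ankrd31*, *Rnf212b* and *Shoc1* matched no row. In WT, 22 of the 44 were called between day 20 and day 26, 17 lower and 5 higher, against 42.5% of all genes, 18.1% lower and 24.4% higher, with a median log2 fold change of -0.38 and adjusted p by edgeR from 8.45e-05 to 0.0273 among the called genes. The genes named here beyond the 3 largest changes in each direction were taken up after their values were seen, and the counts by role stand against the same shares of all genes. Among genes of hotspot choice and break formation, 5 of 7 fell, with these log2 fold changes: *Top6bl* with -1.22, the chromatin remodeller *Hells* with -1.16, the break factor *Rec114* with -1.02, the reader of PRDM9 marks *Zcwpw1* with -0.91 and *Mei1* with -0.55. Of 9 genes of end processing and single-stranded DNA, 4 fell, namely the MEIOB partner *Spata22* (-1.05), *Rad50* (-0.64), the exonuclease *Exo1* (-0.56) and *Rpa2* (-0.53), and the replication protein A subunit *Rpa1* rose (0.82).

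Of 13 genes of strand exchange, 3 fell, among them *Mnd1* (-0.91) and *Brca2* (-0.79), and the BRCA2-associated gene *Brme1*, listed as *4930432K21Rik*, rose (0.64). Of 5 genes of crossover designation, *Tex11* fell (-1.03) and the crossover factor *Prr19* rose (0.82). Of 10 genes of joint resolution and crossover limitation, 4 fell, among them *Pms2* (-1.0), *Eme1* (-0.65) and the crossover-limiting *Fancm* (-0.49). The nuclease scaffold *Slx4* (0.93) and the endonuclease *Mus81* (0.49) rose. Several genes of the wider list also repair DNA in dividing somatic cells.

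In KO, 19 of the 44 were called, 13 lower and 6 higher, against 52.2% of all genes, 24.9% lower and 27.2% higher, with a median of -0.30. Of these, 15 were called in the same direction in WT, 10 lower and 5 higher, which is 68.2% of the WT calls and 78.9% of the KO calls. The same shares over all genes were not counted, so these are not shown to be particular to the pathway. The 4 genes called in KO and not in WT were the break factor *Mei4* (-1.61), *Rpa3* (-0.83), the crossover gene *Ccnb1ip1* (-0.65) and *Psmc3ip* (0.79), whose product works with MND1. These 4 are not shown to differ between the genotypes, as the test of the difference called 0 of the 44 by edgeR. Of the 44, 4 were at an unadjusted p under 0.05, against 10.8% of all genes, and *Psmc3ip* was the 1 among them that was called in KO and not in WT.

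**Figure D4:**
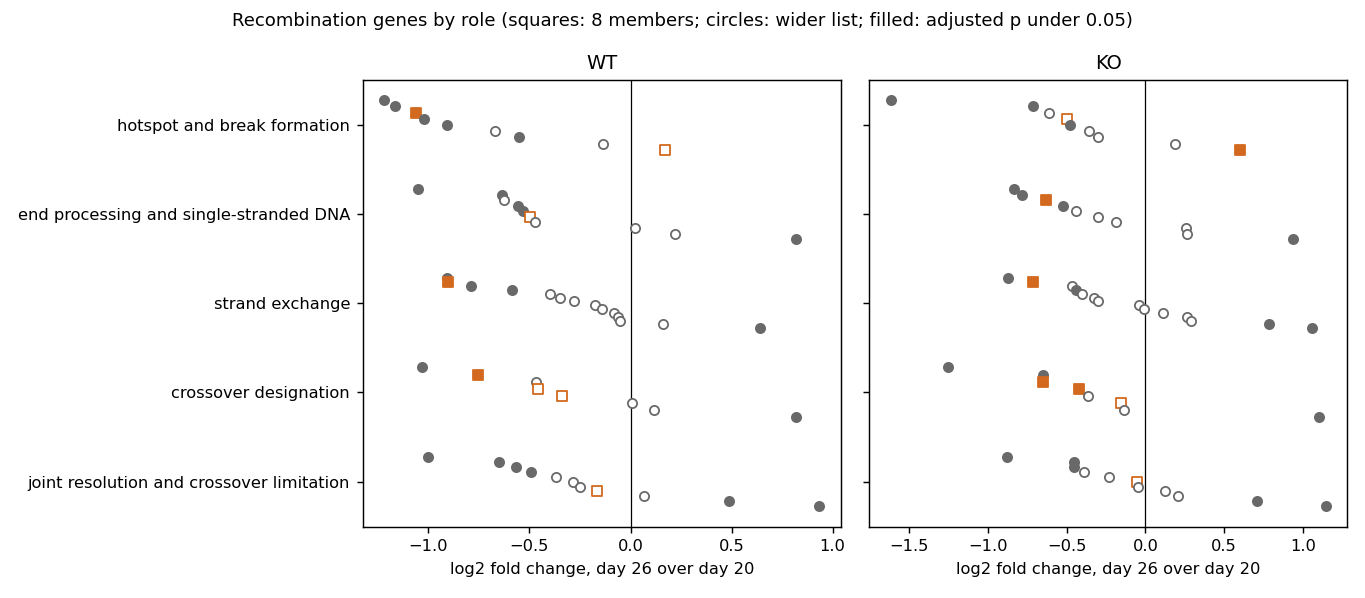
Log2 fold change from day 20 to day 26 (horizontal axis) in WT (left) and KO (right), by role. Squares are the 8 genes, circles the 44 further genes, and filled symbols passed an adjusted p under 0.05. In WT the break-formation genes lie to the left, from -1.22 to -0.14, except *Spo11* at 0.17.

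Between KO and WT libraries of the same day, none of the 8 genes was called on any day. By edgeR the calls were 0 of 8 on day 20, against 3.34% of all genes, 0 of 8 on day 22 against 2.51%, 0 of 8 on day 24 against 0.0874% and 0 of 8 on day 26 against 0.0466%. At an unadjusted p under 0.05 there was 1 gene on day 20, *Prdm9*, 0 on days 22 and 24, and 1 on day 26, *Spo11*, where 12.5%, 14.6%, 5.23% and 11.5% of all genes passed that limit on days 20, 22, 24 and 26. DESeq2 called 0 on days 20, 22 and 24 and 1 on day 26, among 901, 749, 40 and 153 genes it called in all. KO and WT libraries of all 8 genes overlapped on days 20 and 22, where 4.71% and 8.09% of all genes did not overlap. On day 24, 5 of the 8 did not overlap, with *Spo11*, *Prdm9*, *Dmc1* and *Msh5* higher and *Meiob* lower in both KO libraries, but with 2 libraries a group this held for 44.0% of all genes. On day 26, 4 did not overlap, with *Spo11*, *Msh4* and *Msh5* higher and *Meiob* lower in KO, as 59.0% of all genes did not.

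*Prdm9* on day 20 had a log2 fold change of -0.43 between KO and WT (SE 0.178, adjusted p = 0.288 by edgeR; 0.0686 to 0.747 over the alternatives tried). The 2 lowest KO libraries of that day, replicates 3 and 4, lay at 11.9 and 11.6 CPM, below the other 6 libraries. On days 22, 24 and 26 its log2 fold changes were 0.11, 0.41 and 0.14. *Dmc1* had its largest daily difference on day 24, 0.39 (95% interval -0.11 to 0.89), and so had *Meiob*, -0.28 (-0.76 to 0.21). The largest daily differences of *Msh4* and *Msh5* were 0.25 on day 20 (-0.038 to 0.55) and 0.23 on day 26 (-0.23 to 0.70), and those of *Hfm1* and *Mlh3* were -0.15 on day 20 (-0.57 to 0.27) and 0.090 on day 22 (-0.14 to 0.32). Each of these intervals covered 0, and the value of *Hfm1* on day 20 turned to 0.18 without WT replicate 2. With a library left out, *Msh4* on day 20 ranged from 0.15 to 0.33 and *Msh5* on day 26 from 0.12 to 0.37. On day 24, *Dmc1* ranged from 0.30 to 0.50 and *Meiob* from -0.37 to -0.21. The median over the 8 genes was -0.070, 0.069, 0.13 and 0.11 on days 20, 22, 24 and 26, beside 0.0046, 0.010, -0.0091 and -0.037 over all genes tested.

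*Spo11* had log2 fold changes between KO and WT of 0.17 on day 20, 0.049 on day 22, 0.30 on day 24 and 0.60 on day 26. With a library left out, they ranged from 0.073 to 0.28 on day 20, 0.011 to 0.10 on day 22 and 0.17 to 0.40 on day 24. The day 26 value (SE 0.177, 95% interval 0.24 to 0.97) had an adjusted p of 0.203 by edgeR. It passed with DESeq2 (adjusted p = 0.0441), with edgeR on the day 26 libraries alone (0.00492) and in the edgeR fit without WT replicate 2 of day 20 (0.0462), over a range of 0.00492 to 0.967 among all alternatives. Among all genes, these fits called 153, 1984 and 103 on day 26, in that order, against 8 in the edgeR fit of all 24 libraries. Without the libraries of day 26 that held epididymal markers, the day 26 value of *Spo11* was 0.61 (WT replicate 2 left out) and 0.59 (KO replicate 2 left out). In these, 1 library then stands for its group.

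Averaged over the 4 days, *Spo11* was higher in KO by 0.28 on the log2 scale (SE 0.0766, 95% interval 0.12 to 0.44, adjusted p = 0.0326 by edgeR), the 1 call among the 8 genes, against 7.08% of all genes called and 3.52% called higher. The group means were higher in KO on 4 of 4 days. The call was lost in 7 of the 24 fits that left out a library, those without KO replicate 2 or WT replicate 1 or 2 of day 24 (0.26, 0.29 and 0.29), without KO replicate 1 or 2 of day 26 (0.30 and 0.28) and without WT replicate 1 or 2 of day 26 (0.28 and 0.28). Over all alternatives, DESeq2 included, the adjusted p ran from 0.00551 to 0.0705.

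The summed levels of 8 of the 11 marker lists did not overlap between the genotypes on day 26 either, as 59.0% of all genes did not, 2 higher and 6 lower in KO. By edgeR, 0 markers of the 11 lists were called between the genotypes on day 26, against 0.0466% of all genes. The 6 pachytene markers summed to 5404 to 5447 CPM in KO and 4300 to 4645 CPM in WT. The 6 elongating spermatid markers summed to 2550 to 2605 CPM in KO and 1439 to 2511 CPM in WT. Early prophase markers were lower, at 2346 to 2418 CPM in KO and 2470 to 2729 CPM in WT, as were spermatogonial markers, at 119 to 122 and 131 to 146 CPM, and the lists of Sertoli, Leydig, peritubular and endothelial cells. Round spermatid markers overlapped, at 497 to 554 CPM in KO and 480.0 to 520 CPM in WT. On day 20, edgeR called 6 of 6 round and 2 of 6 elongating spermatid markers higher in KO, against 3.34% of all genes called. On day 22 the counts were 0 of 6 and 4 of 6, against 2.51% of all genes called. Averaged over the days, 4 of 6 round and 6 of 6 elongating spermatid markers were called higher in KO, against 3.52% of all genes called higher. The part of these cell types in the differences of *Spo11*, and of *Prdm9* on day 20, was not tested.

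For the other 7 genes the mean difference over the days had a 95% interval that covered 0. It was 0.059 for *Prdm9* (-0.17 to 0.29), -0.17 for *Meiob* (-0.38 to 0.044), 0.10 for *Dmc1* (-0.12 to 0.32) and 0.11 for *Msh4* (-0.071 to 0.29). It was 0.14 for *Msh5* (-0.057 to 0.34), -0.031 for *Hfm1* (-0.29 to 0.22) and 0.0066 for *Mlh3* (-0.14 to 0.15). The narrowest interval was that of *Mlh3*, and none of these intervals reached a difference of 0.5 on the log2 scale in either direction. The median over the 8 genes was 0.080, beside 0.0050 over all genes tested. Of the 44 further genes, 0 were called on any day or over the mean of the days by edgeR, with 6, 5, 1 and 7 at an unadjusted p under 0.05 on days 20, 22, 24 and 26 and 3 over the mean of the days. Of all genes tested, 12.5%, 14.6%, 5.23%, 11.5% and 23.2% were under that limit.

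**Figure D5:**
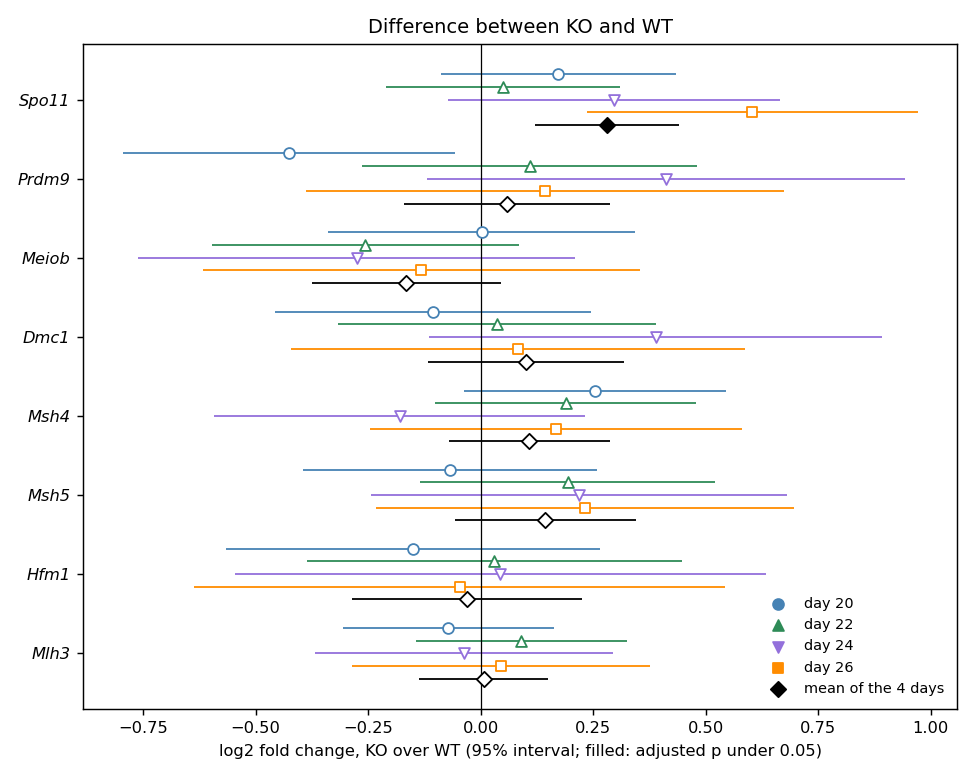
Log2 fold change of KO over WT (horizontal axis) for each of the 8 genes on each day and over the mean of the 4 days (diamonds), with 95% intervals; filled symbols passed an adjusted p under 0.05. The mean for *Spo11*, 0.28, is the single filled symbol, and its day 26 value is 0.60.

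The test of whether the KO difference changed between day 20 and day 26 called 0 of the 8 genes by edgeR, with 0 at an unadjusted p under 0.05 and 0 by DESeq2. Of all genes, edgeR called 0%, 10.8% were at an unadjusted p under 0.05, and DESeq2 called 215. The change was 0.43 for *Spo11* (interval -0.020 to 0.88, adjusted p = 0.494 by edgeR) and 0.57 for *Prdm9* (interval -0.079 to 1.22, adjusted p = 0.558 by edgeR). The rise of *Spo11* with age in KO, which was not called in WT, is therefore not shown to differ between the genotypes, and the same holds for the fall of *Prdm9* in WT. Among the other 6 genes the change lay between -0.13 for *Meiob* and 0.30 for *Msh5*.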

How the data were processed

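Total RNA of testes was sequenced as strand-specific, ribosome-depleted libraries. The authors aligned reads to mm10 with STAR 2.7.11b and counted them per gene with HTSeq, by strand and with pairs of several alignments discarded; what they deposited is a table of raw counts for each library, by gene symbol, neither normalized nor pooled. The gene model version is not given in the sources used here. Rows of unassigned pairs (45.1% to 58.5% of pairs with no feature, 4.74% to 13.7% with several alignments) entered neither library sizes nor tests.

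Counts were tested with edgeR 4.0.16 (R 4.3.3): TMM scaling, genes kept by filterByExpr at a minimum count of 10 (17170 genes), a robust quasi-likelihood fit of the 8 groups over the 24 libraries, two-sided tests and Benjamini-Hochberg adjustment over all genes tested, with calls at an adjusted p under 0.05. All groups shared 1 estimate of the spread because 4 of the groups have 2 libraries. The code was tested on simulated data. The alternatives were RLE size factors, library totals, no filter, DESeq2 1.42.0, a replicate block, each day or genotype fitted alone and each library left out. No 2 libraries of a group agreed within sampling noise. At the depths found, 3 counts correspond to 0.154 to 0.280 CPM. The labels give 4 libraries a genotype on day 20 where the text of the study gives fewer, and all were used.

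Levels per length used exons of GENCODE M21 on GRCm38, the build of mm10. Promoter windows and motif searches used RefSeq sequences of GRCm38.p6. Named were all 9 genes, the further pathway genes called between genotypes, the 3 with the largest called rise and fall with age in WT, the 5 genes most like the mean of the members (log2 CPM with a prior count of 2) and *Atad2*. Genes named beyond this rule were chosen after their values were seen. The members, the wider list and the marker lists were chosen with earlier results of these data known. Counting used strand and discarded ambiguous pairs. On the annotation, none of the 8 genes shared exon bases with a gene on the same strand. The values of some genes of the wider list are not reported here.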

Additional observations from a re-analysis of the deposited data

Results flagged for a closer look

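Of the 32 groups of 4 libraries examined (8 genes in the 4 groups of days 20 and 22), 1 passed the limit for an outlying library. *Meiob* stood at 96.2 CPM in WT replicate 2 of day 20, and its gap to the nearest library was 0.870 of the range of the group, above Dixon's 95% critical value for 4 libraries. *Hfm1* in the same library, at 456 CPM, fell just short of that limit. About 1 in 20 groups would pass this limit by chance. WT replicate 2 of day 20 is the library with the lowest depth and the largest share of pairs at several alignments. The part of these in the values of *Meiob* and *Hfm1* was not tested.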

How the results depend on the processing

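Of the values of the 8 genes under the alternatives, 1789 kept their direction and side of the threshold, 29 lost and 29 gained a call and 41 changed sign. With library totals, the median of all genes moved from -0.044 to -0.15 between days 20 and 26 in WT, from -0.069 to -0.26 in KO, from -0.037 to -0.10 between genotypes on day 26 and from -0.066 to -0.16 for the change of the KO difference. The median of the 8 genes shifted with it, from -0.43 to -0.42 relative to all genes in WT and from -0.39 to -0.38 in KO. The genes called with age in WT then numbered 6, with *Meiob*, *Msh4* and *Msh5* added. Of all genes, 7706 were then called with age in WT, against 7292 with TMM. With RLE factors and with DESeq2, 3 genes were called with age in KO, without *Msh4* and *Hfm1*. Of all genes, these fits called 8672 and 8790, against 8955 by edgeR with TMM. With DESeq2 or the day fitted alone 1 gene (*Spo11*) was called on day 26, where these fits called 153 and 1984 of all genes. For the calls that changed, the cause was not tested. With a library left out, the count of genes called ranged from 0 to 1 on day 26 (1 without WT replicate 2 of day 20) and from 0 to 1 over the mean of the days. It ranged from 2 to 5 with age in WT (5 without WT replicate 3 of day 20 or KO replicate 4 of day 22) and from 2 to 6 with age in KO (2 without either KO library of day 26, 3 without KO replicate 1 or 2 of day 20). Of all genes, 7364 were called with age in WT without WT replicate 3 of day 20. With age in KO, 8594 and 8204 were called without KO replicate 1 or 2 of day 20. A group left with 1 library was assumed to vary like the others.

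The values that changed sign were not called before or after. Between genotypes on day 20, *Meiob* was -0.0090 with RLE factors, -0.0089 with DESeq2 and -0.011 with the day fitted alone. On day 26, *Hfm1* was 0.0014 with RLE factors and 0.0013 with DESeq2, and *Mlh3* was -0.022 with library totals. The change of the KO difference for *Hfm1* was -0.025 with library totals, and the change with age of *Mlh3* in KO was 0.038 with RLE factors and 0.038 with DESeq2. With a library left out, the differences on day 20 ranged from -0.24 to 0.024 for *Dmc1*, -0.29 to 0.18 for *Hfm1*, -0.10 to 0.24 for *Meiob*, -0.16 to 0.016 for *Mlh3* and -0.21 to 0.057 for *Msh5*. On day 22 they ranged from -0.012 to 0.10 for *Dmc1* and -0.045 to 0.12 for *Hfm1*, and on day 24 from -0.023 to 0.12 for *Hfm1* and -0.097 to 0.032 for *Mlh3*. On day 26 they ranged from -0.12 to 0.30 for *Dmc1*, -0.11 to 0.030 for *Hfm1*, -0.013 to 0.12 for *Mlh3* and -0.017 to 0.33 for *Prdm9*, and over the mean of the days from -0.062 to 0.060 for *Hfm1* and -0.0063 to 0.037 for *Mlh3*. The change of the KO difference ranged from -0.011 to 0.41 for *Dmc1*, -0.20 to 0.27 for *Hfm1* and -0.13 to 0.047 for *Msh4*.

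Libraries of WT and KO share replicate numbers, but did not meet the criterion for pairing, a correlation over 0.1 in every same-numbered pair: these ran from 0.071 to 0.41 on day 20 and from -0.46 to -0.025 on day 22, and were 0.39 on day 24 and 0.42 on day 26, where 2 libraries a group give 1 value. Each of the 16 libraries of days 20 and 22 was set against the 4 libraries of the other genotype on its day, and 6 correlated best with their own number. With the replicate number as a block, 0 of the 8 genes were called on each day, 1 over the mean of the days (*Spo11*, 0.28) and 0 for the change of the KO difference, as without it. Of all genes, 595, 365, 9 and 5 were called with the block on days 20, 22, 24 and 26. Over the mean of the days 1298 were called, and 90 for the change of the KO difference. *Prdm9* on day 20 was -0.47 with the block (adjusted p = 0.0852 by edgeR). Days 24 and 26 rest on 2 libraries a genotype.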
